A study of Mus musculus with 4 samples.

Results

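The genes described here encode ligands and adhesion molecules through which B cells meet T cells: the B7 family members Cd80, Cd86, Cd274, Pdcd1lg2 and Icosl, the receptor gene Ctla4, the adhesion genes Icam1 and Sema7a, and the activation markers Cd69 and Cd83. They were chosen by name, as probe sets annotated with exactly 1 symbol, and all 10 were found among the 22180 named genes of the array, each with 1 probe set. Expression was measured on Affymetrix arrays in B lymphocytes sorted with an antibody to B220 (CD45R) from spleens, thymi and lymph nodes, with C57BL/6 as the strain background of every group. The 4 groups were Tilcara stimulated, Tilcara non-stimulated, wild type stimulated and wild type non-stimulated, with 1 array in each. Tilcara is labelled a PKCbeta mutant model, and stimulation was 4 hours with phorbol 12-myristate 13-acetate (PMA) at 10 ng/mL and the calcium ionophore A23187 at 1 µM. The labels do not state ages, sexes or how many mice stand behind an array. A time is given for the stimulated cells only, so a difference with stimulation may include time in culture.

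T cells that recognise antigen on a B cell also read a second set of signals from its surface. CD80 and CD86 engage CD28, which activates the T cell, and CTLA-4, which restrains it. PD-L1 and PD-L2, the products of Cd274 and Pdcd1lg2, engage the inhibitory receptor PD-1, and ICOS ligand engages ICOS on helper T cells. ICAM-1 holds the contact through the integrin LFA-1. PKCbeta relays B cell receptor signals towards NF-kB, and PMA activates PKC enzymes directly while the ionophore raises cytosolic calcium.

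Signals are log2 RMA values, so 1 unit is 2-fold. A gene was used if its highest signal reached 3.83, the median of all named probe set values and called the floor here, which left 12456 genes. Of the 10 genes, 9 passed. Cd80 did not, with signals below the floor on all 4 arrays, and Ctla4 passed through the stimulated wild-type array alone. Each group was a single array, so a difference between 2 groups had no replicate check and carries no p-value. As a measure of scatter, 95% of all used genes differed by less than 0.71 between Tilcara and wild type when stimulated and by less than 0.64 when non-stimulated. The effect of stimulation over both genotypes was also tested with limma, which takes the array of each genotype as 1 sample of a state, so that unequal responses count as error. The words rose and fell are kept for genes that passed that test at an adjusted p of 0.05.

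The labelled cell type was checked against its markers. All 7 B cell markers that were named (Cd79a, Cd79b, Ms4a1, Cd22, Pax5, Blnk and Ptprc) were above the floor on every array, and all 7 fell with stimulation. Of 9 T cell markers, 7 were below the floor in stimulated Tilcara, 7 in non-stimulated Tilcara, 7 in stimulated wild type and 2 in non-stimulated wild type. Their summed linear signal was 96.6 in stimulated Tilcara, 117 in non-stimulated Tilcara, 127 in stimulated wild type and 212 in non-stimulated wild type. The summed signal of 6 neutrophil markers was 749 in non-stimulated wild type and between 37.4 and 55.3 on the other arrays. Of these markers, Ly6g, Camp, Ngp and Ltf were below the floor on every array. The sum of 749 therefore rested mainly on S100a8 and S100a9, and is not a shared change of all 6 markers. B220 is also found on plasmacytoid dendritic cells and some NK cells. The summed signal of 5 plasmacytoid dendritic cell markers was 311 in stimulated and 481 in non-stimulated Tilcara, and 266 in stimulated and 394 in non-stimulated wild type. Bst2 and Tcf4 were the brightest of the 5 on every array. In non-stimulated Tilcara and wild type Klk1 read 6.41 and 2.75, Siglech 5.06 and 4.93, and Ccr9 4.03 and 4.04. The sum of 6 NK cell markers was 103 and 274 in stimulated and non-stimulated Tilcara, and 108 and 237 in stimulated and non-stimulated wild type. The part of both cell types in the results was not tested. In sorted cells of this kind, fewer cells of a type and less RNA per cell cannot be told apart.

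The stimulation response was counted in each genotype. In Tilcara, 3 of the 9 used genes (Sema7a, Cd86 and Cd274) were higher by 2-fold or more with stimulation and 1 (Icosl) was lower, against 11.9% and 14.3% of all used genes. In wild type 7 were at least 2-fold higher, those 3 with Icam1, Cd69, Ctla4 and Pdcd1lg2, and again only Icosl was lower, against 13.4% and 15.9% of all used genes. Ctla4 was used only because of its stimulated wild-type signal, and with low signals raised to the floor it did not pass, leaving 6 higher. Counted from 1.5-fold, 7 of the 9 differed in Tilcara and 9 in wild type. Of all 12456 used genes, 2766 were higher and 2834 lower by that measure in Tilcara, and 2951 and 3083 in wild type. The 7 include Ctla4, whose Tilcara signals were both below the floor and whose Tilcara response against it was 0. After cyclic loess 3 passed 2-fold in Tilcara, without Cd274 (0.96), and 8 in wild type. The median difference of the 9 genes was 0.72 in Tilcara and 1.85 in wild type, where the medians over all used genes were 0.04 and 0.03. The Tilcara median is the value of Ctla4, which comes from signals below the floor. Over both genotypes limma called 6 genes that rose (Sema7a, Cd86, Cd274, Cd69, Ctla4 and Cd83) and 1 that fell (Icosl). Of all used genes, 22% rose and 22.8% fell. With low signals raised to the floor Ctla4 was not called, which left 5 that rose, where 2681 of all used genes rose and 2678 fell.

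**Figure D1:**
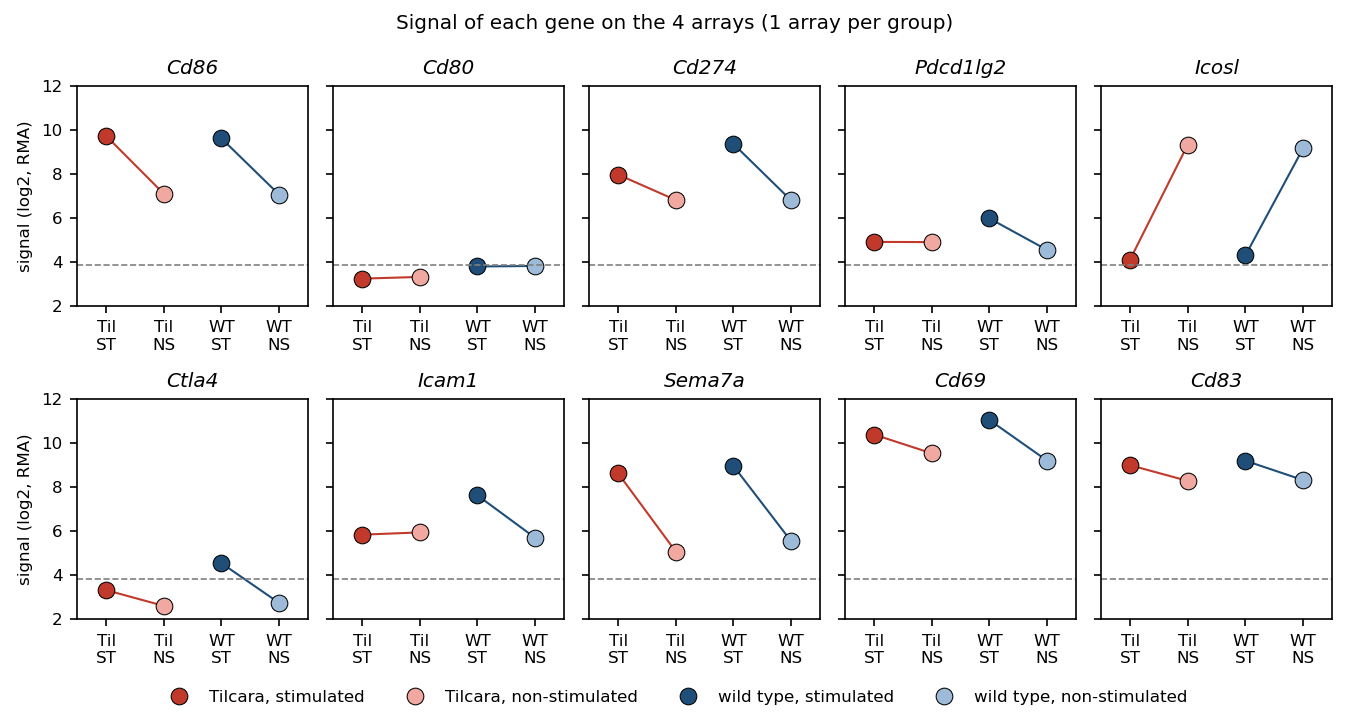
Signal of the 10 genes on the 4 arrays, log2 RMA units on the vertical axis and 1 point per array; lines join the 2 arrays of a genotype (Til, Tilcara; WT, wild type; ST, stimulated; NS, non-stimulated) and the dashed line is the floor of 3.83. Cd86, Sema7a and Icosl show like slopes in both genotypes, whereas Icam1 and Pdcd1lg2 are nearly level in Tilcara and slope in wild type.

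The CD28 and CTLA-4 ligand CD86 had responses of nearly equal size in both genotypes. Cd86 (probe set 17330203) read 9.73 in stimulated and 7.09 in non-stimulated Tilcara cells, and 9.61 in stimulated and 7.05 in non-stimulated wild-type cells. Both stimulated arrays were high and both non-stimulated arrays low, with no overlap between states. This was 6.21-fold higher in Tilcara and 5.89-fold higher in wild type, and Cd86 rose over both (limma log2 change 2.60, SE 0.15, adjusted p = 0.00126). The difference between the responses was 0.08, and the genotypes differed by 0.12 when stimulated. Its partner CD80, the other ligand of the same receptors, had a dim probe set: Cd80 (probe set 17325608) read 3.23 in stimulated and 3.30 in non-stimulated Tilcara, and 3.78 in stimulated and 3.80 in non-stimulated wild type. Since all of these lie below the floor, no fold is given, and a change at this level was not detectable.

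The PD-1 ligand genes were higher with stimulation in wild type and less so in Tilcara. Cd274 (probe set 17358544), for PD-L1, read 7.96 in stimulated and 6.80 in non-stimulated Tilcara, and 9.36 in stimulated and 6.79 in non-stimulated wild type. The non-stimulated arrays were nearly equal, and stimulated Tilcara lay between them and stimulated wild type. The response was 2.23-fold in Tilcara and 5.94-fold in wild type, so that the stimulated arrays differed by −1.39, or 2.63-fold lower in Tilcara, where 0.305% of all used genes were as low or lower. Cd274 rose over both genotypes (limma log2 change 1.87, SE 0.36, adjusted p = 0.0164). Pdcd1lg2 (probe set 17358552), for PD-L2, read 4.90 in stimulated and 4.89 in non-stimulated Tilcara, and 5.97 in stimulated and 4.53 in non-stimulated wild type. The Tilcara arrays were level at 0.01 apart, and stimulated wild type was the only high array. It did not pass over both genotypes (limma log2 change 0.72, SE 0.37, adjusted p = 0.18), and stimulated Tilcara was 2.10-fold lower than stimulated wild type. Both responses differed between the genotypes by nearly the same amount, −1.41 for Cd274 and −1.43 for Pdcd1lg2.

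The 2 PD-1 ligand genes are direct neighbours on chromosome 19 in the RefSeq gene table of GRCm38.p6, and some genes beside them were also lower in stimulated Tilcara. Among the 10 protein-coding genes on each side, a window chosen after the values were seen, 16 genes including the pair were used. With low signals raised to the floor, the 14 genes other than the pair were compared between the stimulated arrays. Of these, 2 were at least 2-fold lower in Tilcara, Jak2 (−1.55), a kinase of cytokine receptors, and Ric1 (−1.27). With the same floor, 73 of all 12456 used genes were at least 2-fold lower. Jak2 read 7.29 in stimulated and 7.79 in non-stimulated Tilcara, and 8.84 in stimulated and 7.70 in non-stimulated wild type. Ric1 read 7.20 and 6.55 in stimulated and non-stimulated Tilcara, and 8.47 and 6.45 in stimulated and non-stimulated wild type. Insl6 read 3.06, below the floor, in stimulated Tilcara and 4.41 in stimulated wild type, a difference of −0.58 against the floor. Mlana was below the floor on 3 arrays and differed by −0.44 against it. Plgrkt and Ermp1, which lie in the same run, differed by −0.64 and −0.38, and Rln1, near the floor, by 0.02 against it. The next genes outward, Rcl1 on the side of Jak2 and 9930021J03Rik beyond Mlana, differed by −0.01 and 0.27. Without stimulation none of the 16 genes differed by 2-fold, with Insl6 the nearest at 0.98. Of all used genes, only 0.425% were higher and 0.658% lower by 2-fold or more in that state. The cause was not tested.

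**Figure D2:**
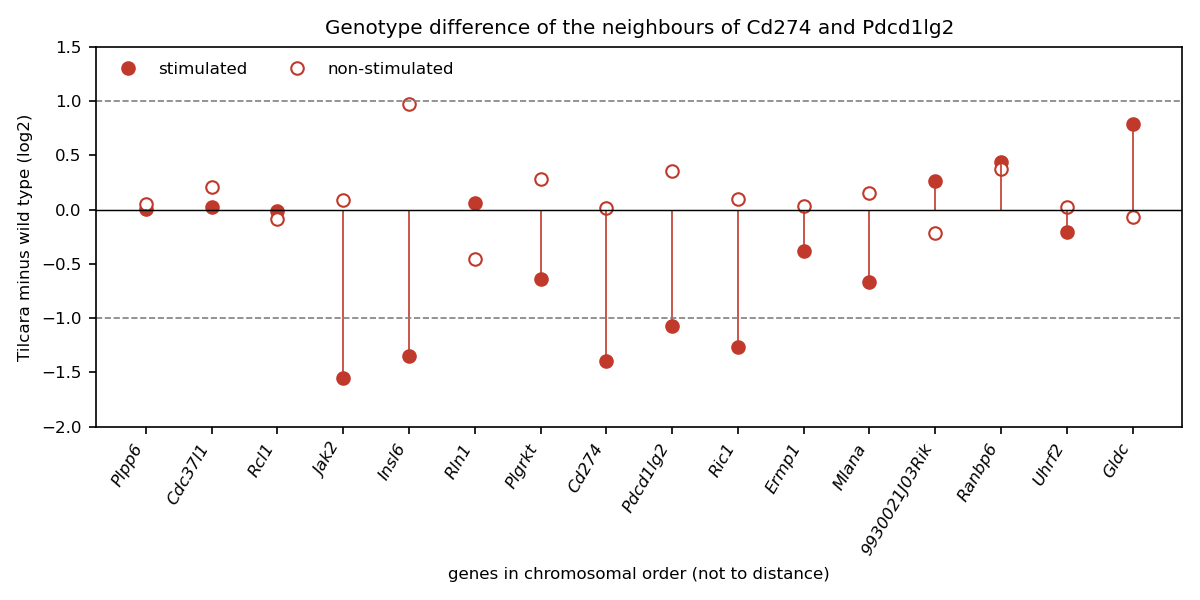
Tilcara minus wild type in log2 units (vertical axis) for the used genes around Cd274 and Pdcd1lg2 in chromosomal order; filled points are stimulated arrays, open points non-stimulated arrays, and dashed lines mark 2-fold. From Jak2 to Mlana the filled points lie below 0 except Rln1, but those of Insl6 and Mlana rest on signals below the floor of 3.83 in stimulated Tilcara, and against the floor they would lie at −0.58 and −0.44.

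ICOS ligand, which B cells show to helper T cells, was the gene of the set that fell. Icosl (probe set 17234786) read 4.10 in stimulated and 9.33 in non-stimulated Tilcara, and 4.29 in stimulated and 9.16 in non-stimulated wild type. Both stimulated arrays lay close to the floor and both non-stimulated arrays were high. It was 37.7-fold lower in Tilcara and 29.4-fold lower in wild type, and fell over both (limma log2 change −5.06, SE 0.17, adjusted p = 0.00109). The genotypes differed by −0.19 when stimulated and by 0.17 when non-stimulated, inside the range that held 95% of genes.

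Ctla4, whose protein binds CD80 and CD86 and is known mainly from T cells, was weak throughout. Its probe set (17213478) read 3.32 in stimulated and 2.60 in non-stimulated Tilcara, and 4.54 in stimulated and 2.73 in non-stimulated wild type. Only stimulated wild type was above the floor, so the wild-type response was at least 1.64-fold and stimulated Tilcara was at least 1.64-fold lower than stimulated wild type, both set against the floor. The unbounded differences were 1.81 for the wild-type response and −1.23 between the stimulated arrays. Ctla4 rose in the fit over both genotypes (limma log2 change 1.26, SE 0.30, adjusted p = 0.0276), but with signals below the floor raised to it the change was 0.36 and did not pass (limma, adjusted p = 0.279). Of the T cell markers, Cd3e was below the floor on both stimulated arrays (3.54 on each), and 7 of the 9 were below it in stimulated Tilcara and 7 in stimulated wild type. Thy1 read 3.84 in stimulated and 3.54 in non-stimulated Tilcara, and 5.01 in stimulated and 5.40 in non-stimulated wild type. Among 5 markers of activated and regulatory T cells, the summed signal was 129 in stimulated and 79.9 in non-stimulated Tilcara, and 150 in stimulated and 102 in non-stimulated wild type. One of them, Cd28, which lies beside Ctla4 on the chromosome, read 3.46 in stimulated and 3.97 in non-stimulated Tilcara, and 4.29 in stimulated and 3.73 in non-stimulated wild type. Tnfrsf4, the brightest of the 5, read 6.38 in stimulated and 5.06 in non-stimulated Tilcara, and 6.41 in stimulated and 5.62 in non-stimulated wild type. Foxp3 read 4.24 and 3.93 in stimulated and non-stimulated Tilcara, and 4.79 and 4.44 in stimulated and non-stimulated wild type. The part of T cells in the Ctla4 signal was not tested.

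ICAM-1, the ligand of the integrin LFA-1, showed the largest genotype difference of the 10 genes. Icam1 (probe set 17515074) read 5.84 in stimulated and 5.95 in non-stimulated Tilcara, and 7.63 in stimulated and 5.70 in non-stimulated wild type. Stimulated wild type stood alone and the other arrays lay within a narrow band. The response was −0.10 in Tilcara and 1.93 (3.82-fold) in wild type, which differ by −2.03. Stimulated Tilcara was 3.45-fold lower than stimulated wild type, and 0.177% of used genes were as low or lower in that comparison. Over both genotypes Icam1 did not pass (limma log2 change 0.91, SE 0.50, adjusted p = 0.21). The LFA-1 chains on the B cell side, named here as the receptor of ICAM-1, both fell: Itgal by 1.99 and Itgb2 by 0.64 on the log2 scale (limma log2 changes over both genotypes).

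The sequences before the starts of Icam1, Cd274, Pdcd1lg2 and Icosl are shown because the first 3 were above the floor on every array and at least 2-fold lower in stimulated Tilcara than in stimulated wild type, and Icosl fell. They are the 250 bases upstream of the start in the RefSeq promoter table (GRCm38.p6), all on the plus strand, at chr9:21015690-21015939, chr19:29367188-29367437, chr19:29410669-29410918 and chr10:78069118-78069367. Capitals mark matches on either strand to 3 patterns: GGNNNTTCC, found in many NF-kB sites, TGANTCA of AP-1, and GGAAA, the core bound by NFAT, which can lie inside the NF-kB pattern.
Icam1: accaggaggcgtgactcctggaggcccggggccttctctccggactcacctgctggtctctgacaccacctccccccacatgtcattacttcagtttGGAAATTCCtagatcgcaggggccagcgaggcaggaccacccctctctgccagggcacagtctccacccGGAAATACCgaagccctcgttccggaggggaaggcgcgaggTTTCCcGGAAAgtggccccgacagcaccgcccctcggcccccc
Cd274: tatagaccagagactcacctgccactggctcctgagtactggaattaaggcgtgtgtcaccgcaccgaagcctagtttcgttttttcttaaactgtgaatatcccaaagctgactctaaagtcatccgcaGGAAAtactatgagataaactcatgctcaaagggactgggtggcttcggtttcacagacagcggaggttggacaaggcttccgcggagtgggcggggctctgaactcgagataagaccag
Pdcd1lg2: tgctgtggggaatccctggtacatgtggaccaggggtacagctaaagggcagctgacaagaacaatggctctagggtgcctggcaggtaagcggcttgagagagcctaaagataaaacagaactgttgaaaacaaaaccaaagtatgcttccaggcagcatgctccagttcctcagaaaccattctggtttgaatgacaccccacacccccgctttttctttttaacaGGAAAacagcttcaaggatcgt
Icosl: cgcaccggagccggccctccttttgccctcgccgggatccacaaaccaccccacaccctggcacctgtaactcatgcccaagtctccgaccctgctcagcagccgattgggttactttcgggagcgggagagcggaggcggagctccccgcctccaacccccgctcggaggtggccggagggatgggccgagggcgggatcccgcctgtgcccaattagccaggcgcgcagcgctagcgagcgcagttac

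Of the 10 genes, 7 matched the promoter table: these 4 with Sema7a, Cd80 and Ctla4. The Icam1 window held 2 matches to the NF-kB pattern, GGAAATTCC starting 153 bases and GGAAATACC starting 84 bases before the start, and each overlaps a GGAAA. Cd274 and Pdcd1lg2 held 1 GGAAA each, at 120 and 22 bases before the start, and Icosl held no match to any of the patterns. Among the 7 windows, 2 held the NF-kB pattern (Icam1 and Cd80), 1 the AP-1 pattern (Cd80) and 5 the NFAT core. Of 32851 windows of the same length in the table, 15.7% held the NF-kB pattern, 6.75% the AP-1 pattern and 55.6% the NFAT core. The patterns were picked with the sequences in view, and a match is a run of letters and not a measured site. GGNNNTTCC does not cover every NF-kB site, so a window without a match was not shown to lack one.

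Sema7a had the highest response of the set. Semaphorin 7A is a membrane-anchored semaphorin that binds integrins and plexin C1. Sema7a (probe set 17517812) read 8.64 in stimulated and 5.07 in non-stimulated Tilcara, and 8.97 in stimulated and 5.54 in non-stimulated wild type. The stimulated arrays were high and the non-stimulated arrays low in both genotypes. It was 11.8-fold higher in Tilcara and 10.7-fold higher in wild type and rose over both (limma log2 change 3.50, SE 0.15, adjusted p = 0.00109). Tilcara minus wild type was −0.33 when stimulated and −0.47 when non-stimulated, which did not pass for genotype (limma, adjusted p = 0.87).

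The activation markers CD69, which holds lymphocytes in their tissue, and CD83, which stabilises MHC class II and CD86 at the surface, were well above the floor without stimulation. Cd69 (probe set 17471502) read 10.40 in stimulated and 9.55 in non-stimulated Tilcara, and 11.06 in stimulated and 9.21 in non-stimulated wild type. The states did not overlap, and Tilcara minus wild type was −0.66 when stimulated and 0.33 when non-stimulated. The response was 1.81-fold in Tilcara and 3.61-fold in wild type, and Cd69 rose over both (limma log2 change 1.35, SE 0.28, adjusted p = 0.0188). Cd83 (probe set 17286905) read 9.01 in stimulated and 8.29 in non-stimulated Tilcara, and 9.21 in stimulated and 8.33 in non-stimulated wild type. It was higher by less than 2-fold in both genotypes, 1.64-fold in Tilcara and 1.84-fold in wild type, and rose over both (limma log2 change 0.80, SE 0.15, adjusted p = 0.0151).

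**Figure D3:**
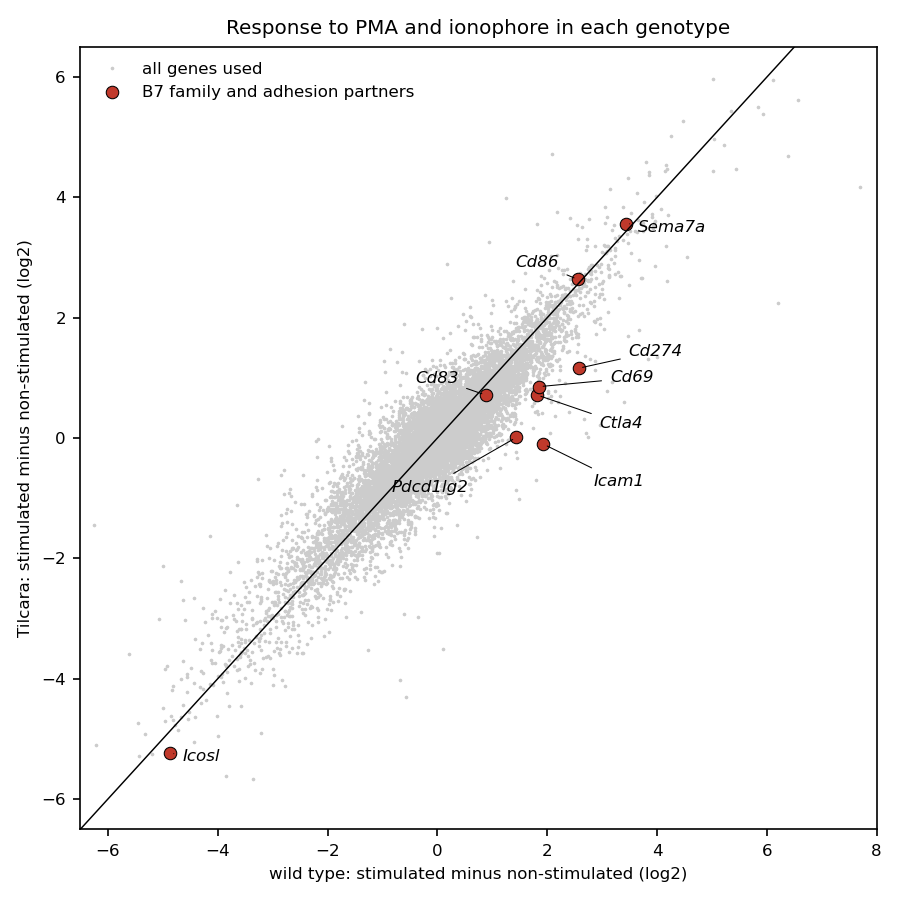
Stimulated minus non-stimulated in log2 units for all 12456 used genes (grey), Tilcara on the vertical axis and wild type on the horizontal axis; red points are the 9 used genes of the set and the line marks equal responses. Sema7a, Cd86, Cd83 and Icosl lie near the line, and Cd274, Cd69, Ctla4, Pdcd1lg2 and Icam1 lie below it.

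Between the genotypes, no used gene of the set differed by 2-fold before stimulation and several did after it. In the stimulated state 4 of 9 genes were at least 2-fold lower in Tilcara than in wild type (Icam1, Cd274, Ctla4 and Pdcd1lg2) and 0 were at least 2-fold higher, where 0.747% and 0.955% of all used genes were. Ctla4 entered through stimulated wild type alone and so could differ in this direction only. With low signals raised to the floor it differed by −0.71, and the count was 3. The median of the 9, Ctla4 included, was −0.66, against 0.01 over all used genes. Of the 9, 8 were lower, Ctla4 among them, whereas all used genes, with that median, were split nearly evenly. In the non-stimulated state 0 of 9 differed by 2-fold in either direction, the median was 0.04 and the differences ran from −0.47 to 0.36. Of all used genes 0.425% were higher and 0.658% lower by 2-fold or more in non-stimulated Tilcara, and after centring each array on its median 68 genes were higher and 68 lower in place of 53 and 82. The Tilcara response was smaller by at least 1 log2 unit for the same 4 genes, and larger by that much for 0, where 1.65% and 2.32% of all used genes were. Cd69 lay just short of that, at −0.996. With low signals raised to the floor this count, too, was 3, without Ctla4. These 3 comparisons share arrays and are not separate evidence, and the difference between responses cannot be tested with 1 array per group. Over both states limma called 0 genes as higher and 0 as lower in Tilcara, 0% of all used genes in each direction. That limma fit had 667 of the 12456 used genes at an unadjusted p under 0.05, close to the share this threshold passes with no effect at all. Sema7a was the member among them, and the smallest adjusted p of any gene in that limma fit was 0.87.

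**Figure D4:**
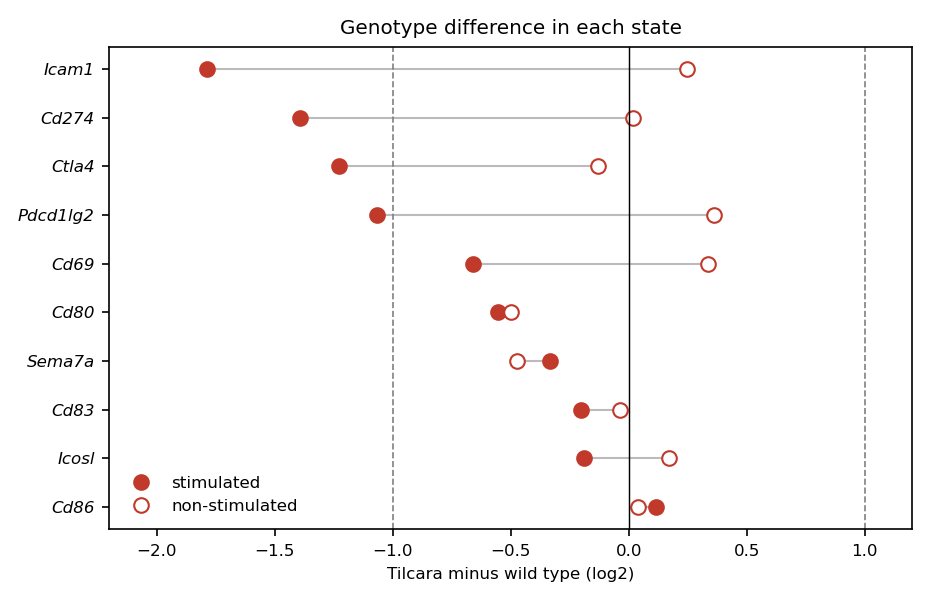
Tilcara minus wild type in log2 units (horizontal axis) for the 10 genes; filled points are the stimulated and open points the non-stimulated arrays, and dashed lines mark 2-fold. Icam1, Cd274, Ctla4 and Pdcd1lg2 pass −1 when stimulated, and none does when non-stimulated; Cd80 lies below the floor on all arrays and Ctla4 on 3.

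Of 18 other listed genes of the B7 and CD28 family, 11 were used, 3 rose with stimulation (Vsir, Pvr and Pdcd1), 1 fell (Btla) and 7 were not called by limma, where 22% of all used genes rose and 22.8% fell. Vsir, for the inhibitory B7 relative VISTA, read 7.16 in stimulated and 5.29 in non-stimulated Tilcara, and 7.42 in stimulated and 4.90 in non-stimulated wild type. Pvr, which encodes the ligand of TIGIT and CD226, had a response of at least 2.21 in Tilcara, where the non-stimulated signal was below the floor, and 1.60 in wild type. Pdcd1, for PD-1 itself, was used only through stimulated wild type, at 4.43, so that its limma call rests on signals below the floor on 3 arrays. Against the floor its response was 0.60 in wild type and 0 in Tilcara. Btla, an inhibitory receptor, differed by −0.58 in Tilcara and −1.17 in wild type. In stimulated cells 0 of the 11 differed by 2-fold between the genotypes, with a median of −0.04. Of all used genes, only 0.955% were higher and 0.747% lower by 2-fold or more in stimulated Tilcara.

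Of 28 listed integrin, ICAM, CD2 and SLAM family genes, 24 were used, 4 rose (Alcam, Itgb1, Cd44 and Slamf7), 13 fell and 7 were not called by limma, beside the 22% of all used genes that rose and the 22.8% that fell. Among those that fell, Pecam1 differed by −3.93 in Tilcara and −4.55 in wild type, and Cd2 by −4.04 in Tilcara and −3.61 in wild type. The integrin gene Itga4 differed by −3.16 in Tilcara and −3.85 in wild type, and its partner Itgb7, below the floor on both stimulated arrays, by −2.90 in Tilcara and −2.83 in wild type against the floor. Cd48, the ligand of CD2 in mice, differed by −3.30 in Tilcara and −2.69 in wild type. Alcam, the ligand of CD6, was higher by 3.39 in Tilcara and 3.46 in wild type. In stimulated cells 0 of the 24 differed by 2-fold between the genotypes, with a median of −0.19. The shares of all used genes there were 0.955% higher and 0.747% lower in Tilcara. Cd244a was below the floor on 3 arrays, and its responses differed by 0.37 against it.

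**Figure D5:**
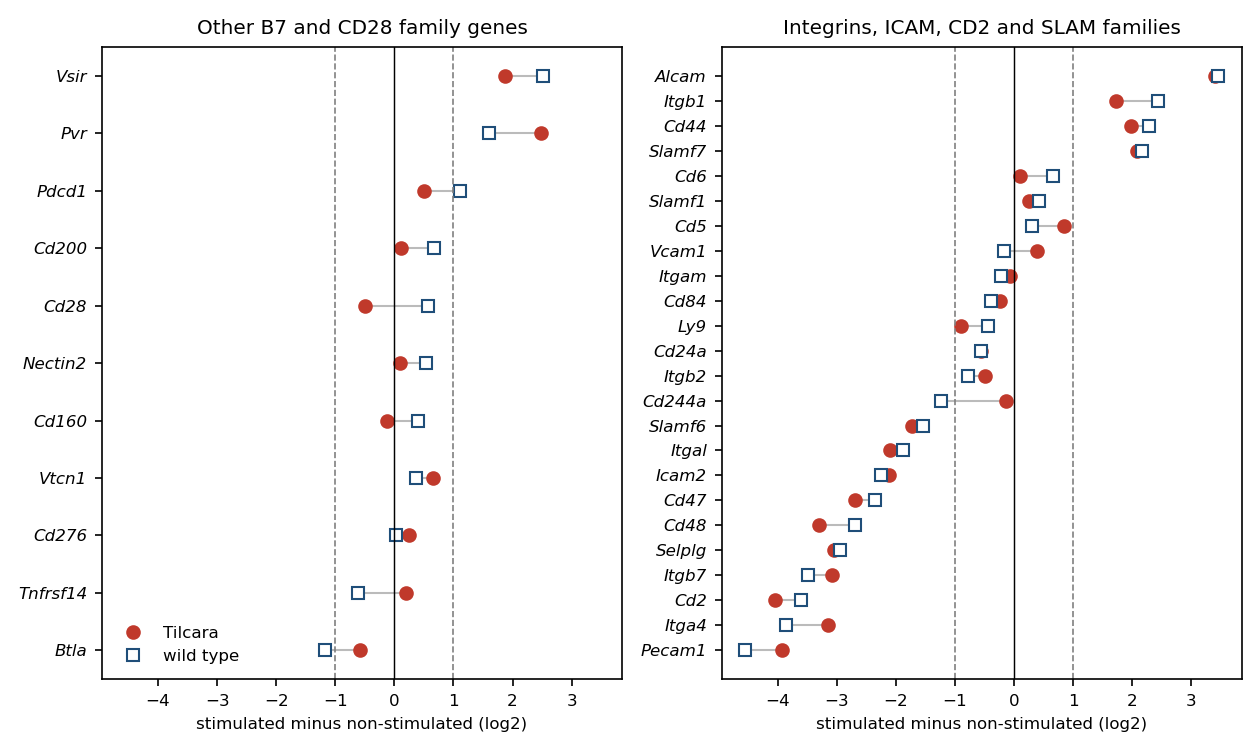
Stimulated minus non-stimulated in log2 units (horizontal axis) for used genes of the B7 and CD28 family (left) and of the integrin, ICAM, CD2 and SLAM families (right); filled circles are Tilcara, open squares wild type, and dashed lines mark 2-fold. The paired points lie close together for most genes, with Pecam1 lowest and Alcam highest on the right.

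Among semaphorins and their receptors 7 of 15 listed genes were used, 0 rose, 3 fell and 4 were not called by limma. Of all used genes, 22% rose and 22.8% fell. Plxnc1, for the plexin that binds semaphorin 7A, differed by −2.07 in Tilcara and −2.24 in wild type. Sema4d differed by −1.94 in Tilcara and −2.24 in wild type, and Sema4b by −2.63 in Tilcara and −2.22 in wild type. Plxnd1 read 3.81 in stimulated and 3.45 in non-stimulated Tilcara, and 5.86 in stimulated and 3.73 in non-stimulated wild type. Stimulated wild type was its only array above the floor, and the stimulated arrays differed by −2.03 against the floor. Of 10 listed genes for MHC class II chains, their turnover, and the trafficking of CD86, PD-L1 and CTLA-4, 8 were used. Of these 0 rose, 3 fell and 5 were not called by limma, beside the same 22% and 22.8% of all used genes. Lrba differed by −1.87 in Tilcara and −2.18 in wild type, the ubiquitin ligase gene Marchf1, below the floor on both stimulated arrays, by −1.41 in Tilcara and −1.37 in wild type against the floor, and Ap1m1 by −0.84 in Tilcara and −0.65 in wild type. Cmtm6, whose product protects PD-L1 from breakdown, read 7.79 in stimulated and 8.28 in non-stimulated Tilcara, and 7.98 in stimulated and 8.07 in non-stimulated wild type.

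The genes whose profile over the 4 arrays was nearest to each of the 9 were found by Euclidean distance between gene-centred log2 signals, low signals included. Nearest to Cd274 were Tnfaip3 (distance 0.21), Tnf (0.23) and Yes1 (0.34). Tnfaip3, for the NF-kB inhibitor A20, read 8.19 in stimulated and 6.87 in non-stimulated Tilcara, and 9.70 in stimulated and 6.92 in non-stimulated wild type. Nearest to Icam1 were Traf1 (0.38), Lif (0.43) and Mir532 (0.46), so no gene lay as close to it as those near Cd274. Pdcd1lg2 lay next to Fam126a (0.07), C9orf72 (0.17) and Slfn3 (0.21). Cd86 lay next to Litaf (0.07), Pop1 (0.09) and Lyar (0.11), and Cd69 next to Plagl2 (0.06), Pgs1 (0.07) and Gabpb1 (0.12). Sema7a lay next to the lactate transporter gene Slc16a1 (0.21), Ctps (0.21) and Psat1 (0.23). Icosl lay next to Sting1 (0.26), Acss1 (0.30) and Cd22 (0.35), and Cd83 next to Pmpca (0.015), Cpsf1 (0.019) and Snora33 (0.049). For Ctla4, below the floor on 3 arrays, no nearest genes are given, and the distances of Mir532, below it on 3 arrays, of Yes1, Slfn3 and Sting1, below it on 2, and of Lif, below it on 1, also rest on such signals. With 4 arrays and 12456 genes such likeness is a description of these arrays.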

How the data were processed

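B cell RNA of 4 samples was hybridised to Affymetrix arrays, 1 per group, and groups were taken from the sample titles. The deposited table holds log2 signals of 41345 probe sets that the authors made with RMA, per the submitters' processing notes; its version and settings were not given in the sources used here. RMA equalises the distributions of the arrays, so a change in total RNA per cell cannot be seen. The array medians lay between 3.73 and 3.79. Depth has no meaning here, and the number of arrays limits the precision.

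By the platform annotation 23521 probe sets carry 1 symbol, 1814 several and 16010 none. The brightest probe set stood for a gene. Differences between arrays were counted at 2-fold with no test. limma 3.58.1 (R 4.3.3) fitted stimulation and genotype additively over all 12456 used genes, with 1 residual degree of freedom and Benjamini-Hochberg adjustment, and was tested on simulated data. The members, lists and tests were chosen with earlier results of these data known. Named genes are the 10 members, up to 4 genes per list and comparison with a difference of at least 1, markers of other cells that differed by at least 1, and the 3 nearest genes per member except Ctla4. Itgal, Itgb2, Cmtm6, Ap1m1, Cd3e, Foxp3 and the genes around Cd274 were added after their values were seen. Alternatives were 2 other scalings, the mean over probe sets, other filters, a floor, 1.5-fold, a variance trend, and fits without the other factor. Some listed genes are not reported here.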

Additional observations from a re-analysis of the deposited data

Results flagged for a closer look

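Each of these genes had effects of opposite sign in the 2 groups compared, each group being 1 array, and the difference was not tested. With stimulation Icam1 was lower in Tilcara, by −0.10, and higher in wild type, by 1.93, so that the responses differed by −2.03. The Tilcara response is nearly level, since the median absolute response of all used genes in Tilcara was 0.50. Tilcara was below wild type when stimulated and above it when non-stimulated for 5 genes. These were Icam1, again with −2.03 between the 2 states, Pdcd1lg2 with −1.43, Cd274 with −1.41, Cd69 with −0.996 and Icosl with −0.36. For Icosl and Cd69 both genotype differences lay within the range that held 95% of genes, and for the other 3 the non-stimulated difference did. The non-stimulated difference of Cd274 was 0.02, and −0.018 after cyclic loess, where its sign was not opposite.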

How the results depend on the processing

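Among the 9 genes, the counts past 2-fold kept within 1.5 times of their reported values under the other scalings, the mean over probe sets, no filter, a stricter filter and signals raised to the floor. Counting from 1.5-fold gave 7 different genes for the Tilcara response in place of 4. No single gene of the set changed direction where it had passed 2-fold. Cyclic loess took the Tilcara response of Cd274 to 0.96, below 2-fold. Centring on medians brought Cd69 past 2-fold in the difference between responses, 5 genes in place of 4. Raising low signals to the floor left Ctla4 at 0.71 in wild type and at −0.71 between the stimulated arrays, below 2-fold. With that floor, or with the stricter filter, which drops Ctla4, 3 genes in place of 4 passed between the stimulated arrays. The limma calls for stimulation were 7 or 6 under every alternative, the lost one being Ctla4, and the calls for genotype were 0 under each. Over all used genes, counting from 1.5-fold gave 584 higher and 455 lower in stimulated Tilcara in place of 119 and 93, 413 and 422 in non-stimulated Tilcara in place of 53 and 82, 2766 and 2834 for the Tilcara response in place of 1481 and 1783, 2951 and 3083 for the wild-type response in place of 1666 and 1979, and 1091 and 1003 for the difference of responses in place of 289 and 206. Without a filter that last comparison had 331 lower genes. In non-stimulated Tilcara the stricter filter left 52 lower genes, and the floor left 33 higher and 47 lower. No paired analysis was possible because each group has 1 array and the labels give no replicate numbers. Signals near the floor of 3.83 limit what can be said of Cd80 and Ctla4.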

Other observations

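Markers of other cells that differed by at least 2-fold with signals below the floor of 3.83 raised to it are given as values, which are bounds where a signal was raised. With stimulation Klk1 (−2.57), Klrd1 (−2.21), Gzma (−1.84), Siglech (−1.23) and Nkg7 (−1.06) were lower in Tilcara, and Cd68 (1.39) and Tnfrsf4 (1.33) were higher. In wild type S100a8 (−5.17), S100a9 (−3.78), Lyz2 (−2.16), Klrd1 (−2.02), Cd3d (−1.26), Gzma (−1.23), Prf1 (−1.13) and Siglech (−1.10) were lower. Tilcara minus wild type was −1.17 for Thy1 when stimulated. When non-stimulated it was −5.17 for S100a8, −3.52 for S100a9, −2.16 for Lyz2, −1.57 for Thy1 and 2.57 for Klk1. Against the floor the following stayed below 2-fold, though their signals differed by more: S100a8 and S100a9 with stimulation in Tilcara, Cd3g, Cd8b1, Adgre1 and Ncr1 with stimulation in wild type, and between the genotypes S100a9 when stimulated and Cd3g when non-stimulated. Of the B cell markers, Cd79b was higher in stimulated Tilcara by 1.61. Their part in the differences of the B7 family genes was not tested.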
